A study of Mus musculus with 12 samples.

Results

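The genes of the mitogen-activated protein kinase (MAP kinase) cascade and the dual-specificity phosphatases were taken as every protein-coding mouse gene of the deposited table whose symbol starts with Mapk, Map2k, Map3k, Map4k or Dusp. There were 58 of them among the 9374 genes of the table. RNA was sequenced from blood neutrophils of female mice that received saline or LPS (lipopolysaccharide, from the outer membrane of Gram-negative bacteria) at 0.5 mg/kg for 16 hours. The mice were wild type (WT) or of a line labelled Hmgb1ΔMye, a name used for a deletion of Hmgb1 in myeloid cells. There were 12 libraries, 3 in each of the 4 groups: WT-Saline and KO-Saline, WT-LPS and KO-LPS. In these names KO is short for Hmgb1ΔMye. The labels name no Cre driver, no age, no number of mice per library and no method of isolating the neutrophils. Whether each library came from its own mouse is not stated either, so the p-values measure the spread between libraries, which could be technical.

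In the MAP kinase cascade, MAP4 kinases and other inputs act on MAP3 kinases, which phosphorylate MAP2 kinases, which in turn phosphorylate the MAP kinases ERK, JNK and p38. In neutrophils this cascade lies downstream of Toll-like receptor 4, the LPS receptor, and of chemoattractant and cytokine receptors, and it takes part in priming, degranulation and cytokine production. The dual-specificity phosphatases called MAP kinase phosphatases remove the phosphates from the activation loop of the MAP kinases. RNA level says nothing of phosphorylation, which was not measured.

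The 250 bases before the RefSeq transcription start are shown for the 3 MAP kinase phosphatases that passed the test in at least 1 comparison, Dusp1, Dusp16 and Dusp2. Capitals mark TGACG or its reverse complement, the core of the cAMP response element (CRE) that CREB and ATF proteins bind. The full CRE, TGACGTCA, holds 2 overlapping copies of the core, 1 on each strand. Sequences are from RefSeq on GRCm38.p6 (mm10), 5′ to 3′ on the strand of the gene.
Dusp1, chr17:26508473-26508722, minus strand: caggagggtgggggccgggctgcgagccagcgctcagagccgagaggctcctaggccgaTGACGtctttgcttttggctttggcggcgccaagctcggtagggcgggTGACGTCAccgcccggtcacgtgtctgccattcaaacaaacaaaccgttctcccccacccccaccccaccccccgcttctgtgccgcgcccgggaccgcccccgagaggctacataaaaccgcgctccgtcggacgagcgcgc
Dusp16, chr6:134792629-134792878, minus strand: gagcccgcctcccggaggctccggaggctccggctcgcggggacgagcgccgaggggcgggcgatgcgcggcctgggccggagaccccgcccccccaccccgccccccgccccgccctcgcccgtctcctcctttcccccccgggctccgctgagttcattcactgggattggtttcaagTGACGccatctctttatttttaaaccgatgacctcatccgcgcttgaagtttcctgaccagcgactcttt
Dusp2, chr2:127335909-127336158, plus strand: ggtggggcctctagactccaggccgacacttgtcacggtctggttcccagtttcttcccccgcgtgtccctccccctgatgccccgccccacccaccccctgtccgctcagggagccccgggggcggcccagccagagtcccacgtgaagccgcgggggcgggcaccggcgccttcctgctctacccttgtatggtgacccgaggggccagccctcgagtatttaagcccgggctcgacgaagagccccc
The Dusp1 window held the full CRE, 143 bases before the start, and a further core 191 bases before it. The Dusp16 window held 1 core, 70 bases before the start. The Dusp2 window held none. The 3 windows were of 68.4%, 68.4% and 70.4% GC. Both strands of each window were searched.

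RefSeq windows were found for 46 of the 58 genes, some with several starts, which gave 58 windows. The core TGACG was in 18 of these 58 windows (31.0%) and in 17.8% of all 32851 mouse windows. The full CRE was in 2 of the 58, those of Dusp1 and Mapk10, and in 1.55% of all. The AP-1 motif TGANTCA was in 1 window (1.72%, against 6.75% of all), the GAS motif TTCNNNGAA in 3 (5.17%, against 7.02%), an NF-kB motif in 7 (12.1%, against 7.25%), a CArG box in 1 (1.72%, against 1.47%) and TATAAA in 2 (3.45%, against 12.4%). Median GC content was 64.2% in the windows of these genes and 52.4% in all windows, and the part of base composition in the motif shares was not tested. Of the 7 genes with a window that passed the test in any comparison below, 3 held the core: Dusp1, Dusp16 and Map2k1, the last with 2 copies at 149 and 136 bases before the start.

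Depth was low. Each library had between 399702 and 526757 reads in the table, and 0 reads in a library allowed a level of up to 5.575 to 8.0031 CPM (reads relative to each library's scaled size), taking a floor of 3 reads. Neutrophil identity was carried by 14 of 14 mature neutrophil markers, each with reads in all 12 libraries, with S100a9 at rank 11 of all genes by mean reads and Csf3r, the G-CSF receptor, at rank 14. In WT, 6 of these 14 rose and 3 fell after LPS (limma, adjusted p under 0.05). Csf3r was among those that fell (log2 -1.62). Ly6g, at 4, 5 and 9 reads in WT-Saline, was among those that rose (log2 2.62). Hmgb1 was not lower in the libraries labelled KO: WT-Saline libraries had 8, 17 and 12 reads of it and KO-Saline libraries 14, 10 and 25, and after LPS the WT libraries had 14, 15 and 34 and the KO-labelled ones 6, 30 and 16. They are therefore called KO-labelled throughout. KO-LPS replicate 1 stood apart from its group. Its root-mean-square distance over all genes was 1.18 log2 units from the WT-Saline mean and 1.39 from the WT-LPS mean, while KO-LPS replicate 2 lay at 1.54 and 1.06 and replicate 3 at 1.53 and 1.04. The KO-labelled response and its difference from the WT response are given with and without this library. Markers of other cell types moved with LPS. In WT the summed level of the 4 measured platelet markers was 537 to 805 CPM after saline and 180 to 282 after LPS, with Clec1b at 0 reads in WT-LPS, and that of 6 dendritic cell markers was 230 to 353 and 27.9 to 71.1, with Clec9a at 0 in WT-LPS. The only measured B cell marker of 6, Cd79a, was at 9.68 to 29.6 after saline and 101 to 134 after LPS. The 4 monocyte and macrophage markers summed to 353 to 460 and 496 to 640, but went different ways: 1 was called higher and 2 lower. The 3 of T and NK cells summed to 119 to 173 and 90.7 to 216. Alas2 of erythroid cells was at 4.84 to 22.4 and 7.43 to 37.9 and Siglecf of eosinophils at 4.84 to 13.0 and 2.37 to 5.58. All 12 genes listed as markers of immature neutrophils or specific granules rose in WT, from a sum of 936 to 1230 to one of 12300 to 16800. This list shares Mmp8 with the mature neutrophil list. The part of these cell types in the results below was not tested. In bulk samples, fewer cells of a type and less RNA per cell cannot be told apart.

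Of the 58 genes, 11 code for MAP kinases, 5 for MAP2 kinases, 16 for MAP3 kinases or a protein named as one, 5 for MAP4 kinases, 3 for MAPK-activated kinases, 6 for scaffolds or partners, 7 for MAP kinase phosphatases and 5 for atypical dual-specificity phosphatases. RefSeq lists 78 protein-coding genes with these symbols. The other 20, among them Mapk11, Map2k6, Dusp3 and Dusp10, were not analysed here. The 58 genes had 41709 reads in total, 0.78% of all reads, and 47.8% of these fell on 2 genes, Dusp1 and Map3k12. A mean of at least 10 reads per library was reached by 33 genes, 25 were below it, and 38 had reads in all 12 libraries.

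Per length, Dusp1 was the most abundant member. Its mean level over the 12 libraries was 573 CPM per kb of exon. Dusp1 is the founding MAP kinase phosphatase, acting mainly on p38 and JNK in the nucleus. On the same per-length scale it was followed by 3 MAP3 kinases, Map3k12 (DLK) at 208, Map3k3 (MEKK3) at 129 and Map3k15 (ASK3) at 71.2. Map3k11 (MLK3) was at 65.9 and Dusp6, a cytoplasmic phosphatase of ERK, at 56.1. Exons of 18 of the 58 genes overlap exons of a gene on the other strand, those of Dusp1, Map3k12, Map3k15 and Map3k11 among them. The overlap covers 1732 bases of Map3k12, whose opposite gene Pcbp2 had a mean of 41.6 reads per library against 838.1 for Map3k12. It covers 603 bases of Map3k15 opposite Pdha1, with 154.1 mean reads for Pdha1 against 137.0 for Map3k15. It covers 11 bases of Dusp1, opposite Ergic1 with a mean of 8.1 reads. No source used here gives the strand setting of the read counting, so reads of such a gene and of its opposite partner cannot be told apart. Of 229 long non-coding RNA genes opposite a measured coding gene, 170 (74.2%) had more reads than the coding gene, and what this says of the strand setting was not tested. Had reads been counted against the wrong strand, the values of all 58 genes would be in doubt, and not those of the 18 alone.

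**Figure D1:**
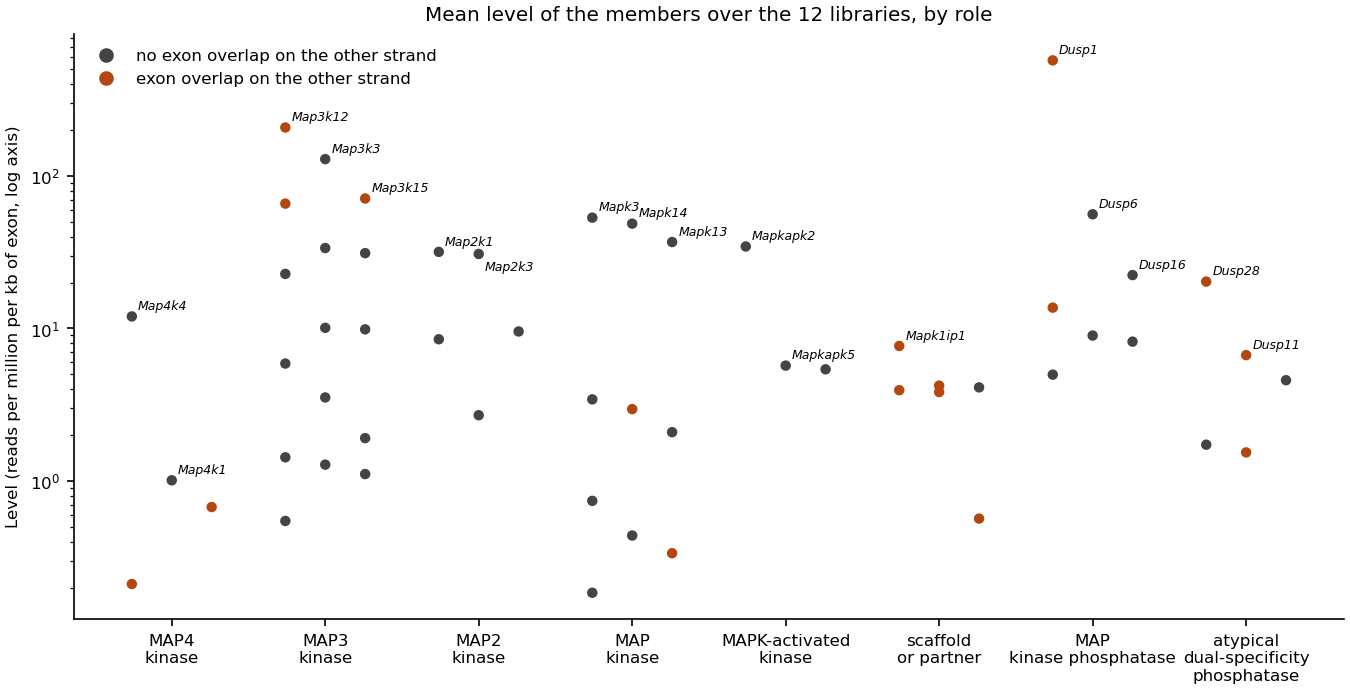
Mean level of 56 of the 58 genes over the 12 libraries in CPM per kb of exon (log axis), by role. Each point is a gene, and orange points are genes with exon overlap on the other strand, which include Dusp1 at 573 and Map3k12 at 208.

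Among the MAP kinases themselves, an ERK gene and the p38 genes Mapk14 and Mapk13 led, and the JNK genes were near the floor. The p38 gene Mapk12 was low as well, at 2.09 CPM per kb of exon and a mean of 3.4 reads per library. Per kb of exon, Mapk3 (ERK1) stood at 53.3 CPM, Mapk14 (p38α) at 48.7 and Mapk13 (p38δ) at 36.9. The spread of Mapk3 and Mapk14 overlapped in each group, with Mapk3 at 44.8 ± 21.4 and Mapk14 at 52.6 ± 7.95 in WT-Saline (SD, n = 3). Mapk9 (JNK2) was at 0.741 and Mapk8 (JNK1) at 0.185. Mapk8 had 3, 0 and 0 reads in WT-Saline libraries and 2, 3 and 0 after LPS. KO-Saline libraries had 0, 1 and 2 reads of Mapk8, and each KO-LPS library had 0. At this depth no difference in Mapk8 was detectable.

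Between LPS and saline in WT libraries, 5 of the 58 genes rose and 2 fell. The risers were 1 gene at each level of the cascade but the MAP3 kinases, namely Map4k4, Map2k1, Mapk13 and Mapkapk2, and the JNK and p38 phosphatase Dusp16. The fallers were the MAP3 kinase Map3k5 and the phosphatase Dusp1. The 7 calls are 12.1% of the members, beside 11.7% of all genes called in this comparison, 6.72% higher and 4.96% lower, so the share is near the background. The median log2 fold change was 0.26 over the members and 0.06 over all genes. WT groups did not overlap for 19 members (32.8%), 11 higher and 8 lower after LPS, beside 30.6% of all genes, 16.5% higher and 14.1% lower, and all 7 called genes were among these 19. Calls are limma calls at an adjusted p under 0.05, and ± after a log2 value is its standard error.

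**Figure D2:**
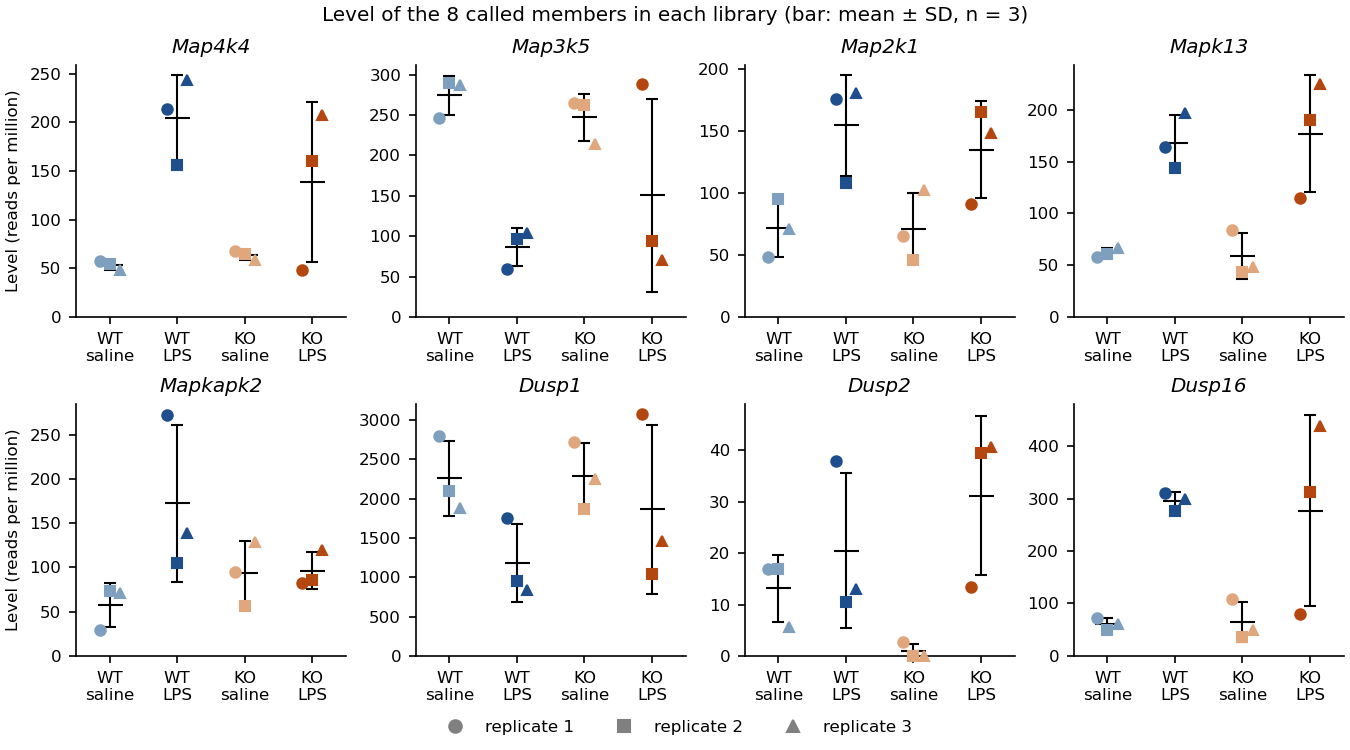
Level in CPM of the 8 genes called in either genotype, in each of the 12 libraries, with marker shape for the replicate number and bars for the mean ± SD of 3 libraries. WT-LPS libraries lie apart from WT-Saline for 7 of the 8, and for Dusp16, Map4k4, Map3k5 and Dusp1 KO-LPS replicate 1 lies away from the other KO-LPS libraries and toward saline.

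At the top of the cascade, Map4k4 (HGK), a MAP4 kinase that feeds the JNK arm, had 24, 26 and 26 reads in WT-Saline and 90, 74 and 131 in WT-LPS. All WT-LPS libraries were higher. Its level went from 53.8 ± 4.93 to 204 ± 44.4 CPM (SD, n = 3), a log2 fold change of 1.88 ± 0.39 (limma, adjusted p = 0.00148). The gene spans chr1:39900913-40026310. The other 4 MAP4 kinases did not pass.

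Of the 16 MAP3 kinase genes, 1 was called. Map3k5 (ASK1), a kinase activated by oxidative stress that drives p38 and JNK, had 102, 137 and 154 reads in WT-Saline and 25, 46 and 56 in WT-LPS. No WT-LPS library reached the lowest WT-Saline library. The level was 274 ± 23.9 CPM after saline and 86.8 ± 24.1 after LPS, a log2 fold change of -1.69 ± 0.36 (limma, adjusted p = 0.00169). Map3k5 lies at chr10:19934472-20142753. Of its relatives in the ASK family, Map3k15 had a log2 difference of 0.60 ± 0.24 (adjusted p = 0.121) and Map3k6 had 6 reads in WT-Saline against 3 in WT-LPS over all libraries. Map3k8 (TPL2), the kinase that links Toll-like receptors to MEK1 and ERK, had 15, 8 and 7 reads in WT-Saline and 43, 9 and 36 in WT-LPS. The groups overlapped in Map3k8 through WT-LPS replicate 2 (log2 1.30 ± 0.56, adjusted p = 0.145). Map3k7 (TAK1), the kinase directly below TRAF6, was at 1 to 14 reads in every library, with a log2 difference of 0.39 ± 1.0 (adjusted p = 0.864). Map3k1 (MEKK1) was lower in all 3 WT-LPS libraries, at 26, 23 and 33 reads against 37, 42 and 51, yet was not called (log2 -0.67 ± 0.34, adjusted p = 0.228). The abundant Map3k12 and Map3k3 had log2 differences of 0.23 ± 0.19 (adjusted p = 0.524) and -0.29 ± 0.21 (adjusted p = 0.444).

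Among the 5 MAP2 kinases, Map2k1 (MEK1), the direct activator of ERK, had 20, 45 and 38 reads in WT-Saline and 74, 51 and 97 in WT-LPS. The groups did not overlap, with WT-LPS replicate 2 the closest to saline. The level was 71.4 ± 23.4 and 154 ± 40.6 CPM, a log2 fold change of 1.11 ± 0.36 (limma, adjusted p = 0.0425). Map2k1 is at chr9:64185770-64253631. Map2k2 (MEK2), its close relative, had a log2 difference of 0.34 ± 0.43 (adjusted p = 0.697). The p38 activator Map2k3 was at 43, 47 and 49 reads after saline and 37, 53 and 32 after LPS (log2 -0.23 ± 0.37, adjusted p = 0.772). The JNK activators Map2k4 and Map2k7 had log2 differences of -0.40 ± 0.50 (adjusted p = 0.694) and 1.49 ± 1.09 (adjusted p = 0.444).

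Of the 11 MAP kinases, 1 was called. Mapk13, the p38δ gene, which neutrophils are known to express, had 24, 29 and 36 reads in WT-Saline and 69, 68 and 106 in WT-LPS. Every WT-LPS library was above every WT-Saline library. The level was 62.1 ± 4.54 and 168 ± 27.1 CPM, a log2 fold change of 1.41 ± 0.34 (limma, adjusted p = 0.00507). The p38α gene Mapk14 lies next to it on chr17, at 28691329 to 28748406 with Mapk13 at 28769297 to 28780233. Mapk14 had 111, 95 and 119 reads in WT-Saline and 88, 85 and 84 in WT-LPS, a log2 difference of -0.34 ± 0.28 that did not pass (adjusted p = 0.503). Per kb of exon, Mapk13 made up 27.5% ± 3.80 of the 2 genes' summed level in WT-Saline and 56.2% ± 6.52 in WT-LPS (SD, n = 3). In KO-labelled libraries the share was 24.8% ± 4.19 after saline and 55.3% ± 14.4 after LPS, with KO-LPS replicate 1 at 38.9% and the other KO-LPS libraries at 65.2% and 61.8%. This share was computed after the values were seen and is a description without a test. The ERK1 gene did not pass in WT: Mapk3 had 57, 22 and 64 reads after saline and 51, 55 and 105 after LPS (log2 0.61 ± 0.36, adjusted p = 0.316).

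Below the MAP kinases, Mapkapk2 (MK2), the p38 substrate kinase that stabilises cytokine mRNA, had 12, 35 and 38 reads in WT-Saline and 115, 50 and 75 in WT-LPS. The groups did not overlap, and WT-LPS replicate 1 was the highest. The level was 57.9 ± 25.1 and 172 ± 88.4 CPM, a log2 fold change of 1.55 ± 0.40 (limma, adjusted p = 0.00953). The gene is at chr1:131053700-131097826. Its relative Mapkapk3 had 11, 7 and 11 reads in WT-Saline and 13, 11 and 20 in WT-LPS (log2 0.55 ± 0.61, adjusted p = 0.652). None of the 6 scaffold or partner genes was called. Mapk8ip3 (JIP3), a JNK scaffold of vesicle transport, had a log2 difference of -0.79 ± 0.42 (adjusted p = 0.26), and its exons overlap Mrps34 and Nme3 on the other strand by 1886 bases.

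Among the 7 MAP kinase phosphatases, Dusp16 and Dusp1 moved in opposite directions in WT. Dusp16, which acts on JNK and p38, had 30, 23 and 33 reads in WT-Saline and 131, 131 and 161 in WT-LPS. The WT-LPS libraries were close to each other and far above saline. The level was 60.9 ± 12 and 295 ± 17.4 CPM, a log2 fold change of 2.28 ± 0.43 (limma, adjusted p = 0.000565). The gene is at chr6:134715468-134792625. Dusp1 had 1154, 993 and 1013 reads in WT-Saline and 740, 449 and 454 in WT-LPS. All WT-LPS libraries were lower, and replicate 1 was the closest to saline. Its level was 2260 ± 474 CPM after saline and 1180 ± 498 after LPS, a log2 fold change of -0.99 ± 0.29 (limma, adjusted p = 0.0234). GENCODE M21 places Dusp1 at chr17:26505590-26562128 on the minus strand, a span that includes a start well upstream of the RefSeq start whose promoter is printed above. Dusp6 was lower in every WT-LPS library, with 49, 53 and 75 reads against 100, 89 and 100 in WT-Saline, but did not pass (log2 -0.74 ± 0.28, adjusted p = 0.0852). Dusp2, a nuclear phosphatase of ERK and p38, had 7, 8 and 3 reads in WT-Saline and 16, 5 and 7 in WT-LPS, and the groups overlapped (log2 0.52 ± 0.92, adjusted p = 0.795). Dusp4 and Dusp5, nuclear phosphatases of ERK and related kinases, had log2 differences of 0.14 ± 0.69 (adjusted p = 0.932) and 0.38 ± 0.68 (adjusted p = 0.796). None of the 5 atypical phosphatases passed: their log2 differences ran from -1.72 to 0.88.

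The calls of Map4k4, Map3k5, Mapk13 and Dusp16 held when each of the 12 libraries was left out in turn, with a highest adjusted p of 0.0398. All 7 WT calls were lost when limma was fitted without the mean-variance trend, at the same fold changes, with adjusted p from 0.0597 (Map4k4, Mapk13) to 0.235 (Dusp1). Mapkapk2 lost its call without WT-Saline replicate 1 (adjusted p = 0.0945) or WT-LPS replicate 1 (adjusted p = 0.109), Dusp1 without WT-Saline replicate 1 (0.136) or 2 (0.0609) or WT-LPS replicate 2 (0.109) or 3 (0.156), and Map2k1 without WT-Saline replicate 1 (0.199) or 3 (0.0965), WT-LPS replicate 1 (0.155) or 3 (0.167) or KO-Saline replicate 1 (0.0509), all as adjusted p.

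Genes around these members are read against the 11.7% of all genes called in WT. The lists differ from the table in precision: the median standard error per list ran from 0.4 to 0.68, beside 0.71 over all genes. The part of this in the shares of the lists was not tested. Of 19 measured genes in a list named inputs from RAS and RAF, 2 rose and none fell (10.5% called). They were Rras (0, 0 and 0 reads after saline and 4, 4 and 8 after LPS) and Rasal3, a RAS GTPase-activating protein (0, 1 and 3 against 14, 10 and 12). This list also holds regulators of RAS such as Rasal3, and whether each of its genes acts as an input in these cells was not tested. Of the 20 adaptors and kinases between TLR4 and TAK1, 2 rose and 3 fell (25% called). Cd14, the LPS co-receptor, had a log2 fold change of 1.81 ± 0.33 (adjusted p = 0.000324) and Irak3, an inhibitory IRAK, one of 1.86 ± 0.35 (adjusted p = 0.000563). The ubiquitin ligase Traf6 changed by -2.79 ± 0.61 (adjusted p = 0.00243) and the kinase Irak1 by -3.44 ± 0.97 (adjusted p = 0.0172). Irak1 had 17, 13 and 8 reads in WT-Saline and 6, 0 and 0 in WT-LPS, so the size of its change rests in part on the 0.5 reads added. Exons of Irak3 overlap Tmbim4 and Gm47009 on the other strand by 220 bases, and those of Rasal3 overlap CT485616.1 by 635. Of 7 further kinases activated by MAP kinases, 2 rose (28.6% called), the RSK genes Rps6ka1 (log2 1.53 ± 0.37, adjusted p = 0.00516) and Rps6ka2 (log2 1.5 ± 0.49, adjusted p = 0.0434). Exons of Rps6ka1 overlap Gm12977 on the other strand by 247 bases.

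The transcription factor list held the most falls. Of 27 measured transcription factors and immediate-early targets of MAP kinases, 7 fell and 1 rose in WT (29.6% called, beside 11.7% of all genes, 4.96% lower), with a median log2 fold change of -0.63 beside 0.06 over all genes. The median standard error of this list was 0.4, beside 0.71 over all genes, and its part in the share was not tested. Fos, an AP-1 subunit, had 703, 638 and 521 reads in WT-Saline and 81, 39 and 35 in WT-LPS, groups far apart, and a log2 fold change of -3.68 ± 0.59 (adjusted p = 8.28e-05). Fosb had 49, 25 and 17 reads in WT-Saline and 0 in each WT-LPS library, and Atf3 had 53, 51 and 45 against 5, 1 and 1. Nr4a1, an orphan nuclear receptor, was the gene that rose, from 32, 39 and 27 reads to 169, 98 and 172. Of 15 measured genes in a list named other brakes on MAP kinases, 3 fell and none rose (20.0% called). They were Gadd45a (log2 -1.57 ± 0.34, adjusted p = 0.0024), Nlrp12 (log2 -1.43 ± 0.28, adjusted p = 0.000634) and Ptprc, which encodes CD45 (log2 -1.06 ± 0.24, adjusted p = 0.00297). Exons of Gadd45a and Nlrp12 overlap genes on the other strand by 337 and 476 bases. The list name was set beforehand, and whether each of its genes acts as a brake in these cells was not tested. In KO-labelled libraries 0, 2, 0, 3 and 1 genes of these 5 lists were called, in the order given, beside 3.35% of all genes. Without KO-LPS replicate 1 the counts were 0, 2, 2, 11 and 4, beside 11.5% of all genes.

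In KO-labelled libraries, 3 of the 58 genes rose after LPS and none fell. They were Mapk13, Dusp16 and Dusp2. The 3 calls are 5.17% of the members, beside 3.35% of all genes, 1.99% higher and 1.35% lower, and 11 members (19.0%) had an unadjusted p under 0.05, beside 17.2% of all genes. Groups did not overlap for 7 members (12.1%), 4 higher and 3 lower, beside 16.6% of all genes, 9.67% higher and 6.89% lower. The median log2 fold change was 0.12 over the members and 0.09 over all genes.

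Mapk13 had 32, 20 and 20 reads in KO-Saline against 43, 77 and 105 in KO-LPS. The groups did not overlap, and KO-LPS replicate 1 was the lowest of its group. The level was 58.7 ± 22.1 and 177 ± 56.4 CPM, a log2 fold change of 1.58 ± 0.34 (limma, adjusted p = 0.00747). Dusp16 had 41, 17 and 20 reads in KO-Saline against 30, 127 and 204 in KO-LPS. Here the groups overlapped, because KO-LPS replicate 1 lay below KO-Saline replicate 1. The log2 fold change was 1.92 ± 0.43 (limma, adjusted p = 0.0109), with levels of 64.4 ± 37.9 and 277 ± 181 CPM. Dusp2 had 1, 0 and 0 reads in KO-Saline against 5, 16 and 19 in KO-LPS. All KO-LPS libraries were higher. The pooled ratio of 40 reads to 1, scaled for depth, was 40.2 with a 95% counting interval of 6.81 to 1630, and the limma test gave an adjusted p of 0.011. The atypical phosphatase Dusp14 had 0 reads in all KO-Saline libraries and 7, 3 and 0 after LPS, of which replicate 1 holds most, and was not called (adjusted p = 0.291). No fold is given for Dusp14, since the other KO-LPS libraries hold 3 reads, under the floor of 9 reads over a group. Mapk4 and Mapk8 had 0 reads in all KO-LPS libraries and 4 and 3 reads over the KO-Saline libraries, so no fold is given.

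Without KO-LPS replicate 1, 10 members were called in KO-labelled libraries, 6 higher and 4 lower, beside 11.5% of all genes. These 10 held the 3 called before. Map4k4 had 26, 30 and 24 reads in KO-Saline against 18, 65 and 97 in KO-LPS, where replicate 1 was the low one. Its log2 fold change was 0.87 (adjusted p = 0.252) with that library and 1.5 ± 0.33 (adjusted p = 0.00137) without it. Map3k5 had 101, 121 and 88 reads in KO-Saline against 108, 38 and 33 in KO-LPS, and its log2 fold change went from -0.98 (adjusted p = 0.142) to -1.58 ± 0.29 (adjusted p = 0.000157). Dusp1 had 1039, 863 and 926 reads in KO-Saline against 1156, 424 and 684 in KO-LPS, so that replicate 1 held more reads than any KO-Saline library. Its log2 fold change went from -0.43 (adjusted p = 0.488) to -0.87 ± 0.22 (adjusted p = 0.00686). Map2k1 went from 0.94 (adjusted p = 0.167) to 1.20 ± 0.37 (adjusted p = 0.0277), and Dusp16 from 1.92 to 2.65 ± 0.35 (adjusted p = 3.81e-07). Dusp6 had 75, 111 and 122 reads in KO-Saline against 57, 38 and 67 in KO-LPS, lower in every library, and passed only without that library (log2 -0.92 ± 0.28, adjusted p = 0.0636 with it and -1.05 ± 0.29, adjusted p = 0.011 without). Mapk6 (ERK3) was called without it as well (log2 2.62 ± 0.84, adjusted p = 0.0342), and so was the atypical phosphatase Dusp18, which had 6, 16 and 4 reads in KO-Saline against 10, 0 and 0 in KO-LPS. Mapkapk2 was at 36, 26 and 53 reads in KO-Saline against 31, 35 and 56 in KO-LPS and was not called either way, with a log2 difference of 0.11 (adjusted p = 0.929) with the library and 0.20 (adjusted p = 0.818) without it. The summed markers of immature neutrophils or specific granules stood at 2430 CPM in KO-LPS replicate 1 and at 16700 and 16300 in the other KO-LPS libraries. The sum was 936 to 1230 over the WT-Saline and 1640 to 2640 over the KO-Saline libraries. The part of the state of KO-LPS replicate 1 in the differences was not tested.

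**Figure D3:**
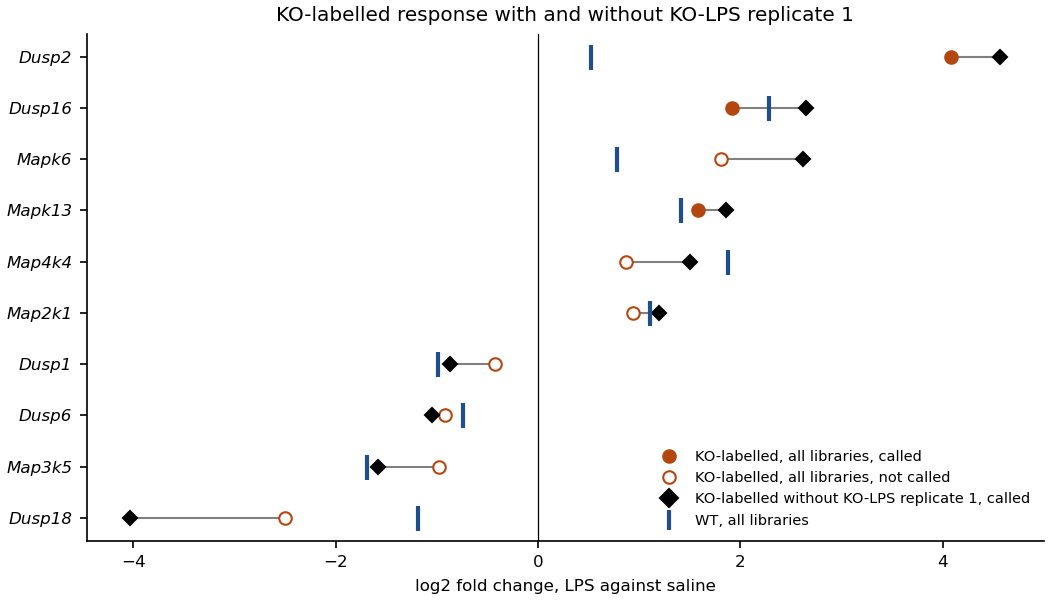
Fitted log2 fold change of LPS against saline in KO-labelled libraries with all libraries (circles, filled where called) and without KO-LPS replicate 1 (diamonds), for the 10 genes called without it, with the WT value as a bar. The 10 genes were chosen by the values without that library, so their larger size is no finding; Map3k5 is at -0.98 with it and -1.58 without.

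The 3 calls in KO-labelled libraries also rested on other libraries and on the model. At the same fold changes, they were lost without the mean-variance trend (adjusted p = 0.113 for Mapk13, 0.215 for Dusp16 and 0.0548 for Dusp2) and in a fit of the KO-labelled groups alone (adjusted p = 0.0508, 0.0728 and 0.0716). Mapk13 lost its call without KO-Saline replicate 2 (adjusted p = 0.0565) or KO-LPS replicate 2 (0.0771) or 3 (0.0922), Dusp16 without KO-Saline replicate 2 (0.0877) or 3 (0.0747) or KO-LPS replicate 2 (0.121) or 3 (0.154), and Dusp2 without KO-Saline replicate 2 (0.0511) or KO-LPS replicate 2 (0.118) or 3 (0.0984), all as adjusted p.

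The responses of WT and KO-labelled libraries share no library. They had the same sign for 41 of the 58 members (70.7%), beside 68.4% of all genes. Among the 33 members with a mean of at least 10 reads the sign was the same for 28 (84.8%), beside 73.7% of all 4964 genes with as many reads, and Pearson's r between the log2 fold changes was 0.72, beside 0.74. Over all 58 members r was 0.37, beside 0.52 over all genes. Without KO-LPS replicate 1 the sign was the same for 40 of the 58 members (69.0%), beside 70.3% of all genes, and r was 0.46, beside 0.59. Among the 33 members with a mean of at least 10 reads it was then the same for 27 (81.8%), beside 75.9% of all genes with as many reads, and r was 0.75, beside 0.79. These are descriptions across genes, which are not independent replicates.

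**Figure D4:**
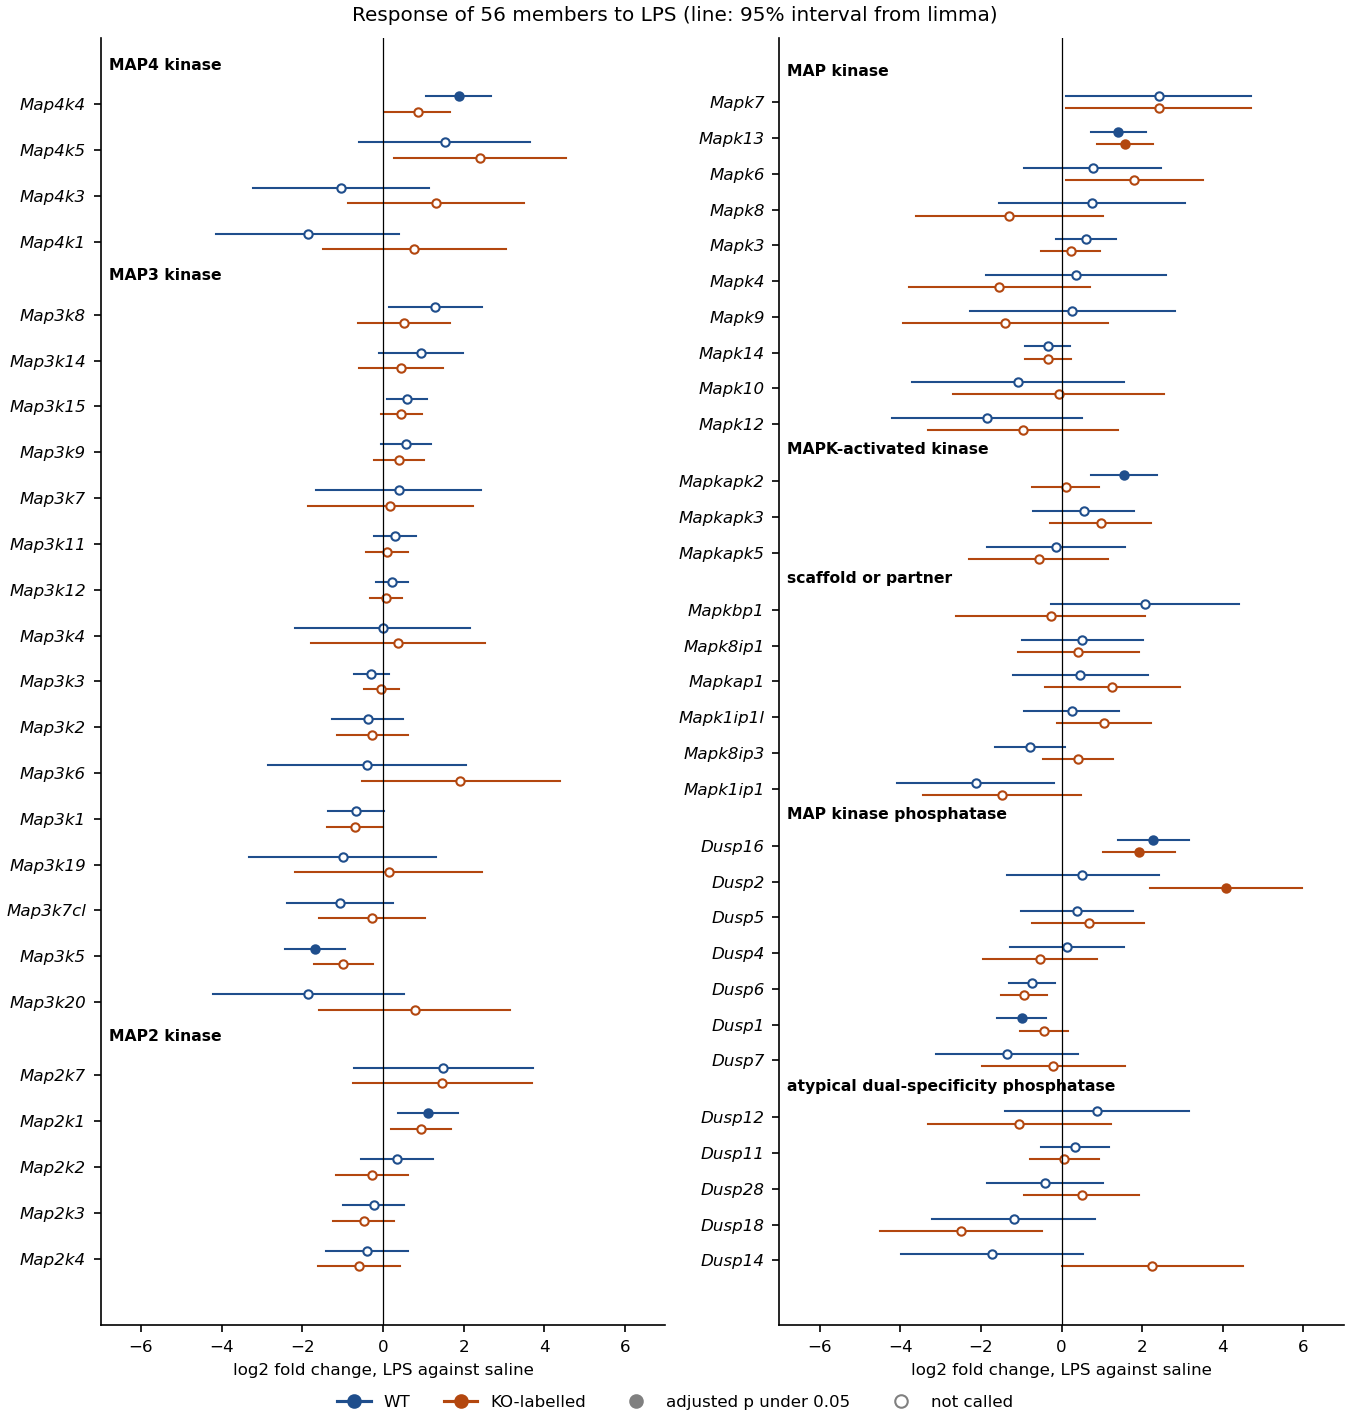
Log2 fold change of LPS against saline, with its 95% interval from limma, for 56 of the 58 genes by role, in WT and in KO-labelled libraries. Filled points are called: 7 in WT, from Dusp16 at 2.28 to Map3k5 at -1.69, and 3 in KO-labelled libraries, and the widest intervals belong to genes with few reads.

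Between KO-labelled and WT libraries after saline, none of the 58 genes was called by limma, and none by limma with voom weights. Of all genes 1 was called (0.0107%). An unadjusted p under 0.05 was reached by 5 members (8.62%), beside 6.86% of all genes. Among these members were Dusp2, Map3k7cl, Mapk8ip3 and Dusp5. Groups did not overlap for 12 members (20.7%), 2 higher and 10 lower in KO-Saline, beside 12.1% of all genes, 5.82% higher and 6.28% lower. KO-Saline replicate 3 had 0 reads for 19.2% of all genes, while the other libraries had 0 reads for 6.93% to 12.6%. The part of this library in the lower values and in the 0 reads of KO-Saline was not tested. Dusp2 had 1, 0 and 0 reads in KO-Saline against 7, 8 and 3 in WT-Saline, every KO-Saline library being lower. The pooled ratio was 0.0631, with a 95% counting interval of 0.00151 to 0.400, and the limma test gave an adjusted p of 0.497. Cell type markers differed between these groups as well. KO-Saline libraries had more of the summed markers of immature neutrophils or specific granules than WT-Saline (1640 to 2640 against 936 to 1230 CPM). They had less of the dendritic cell markers (178 to 212 against 230 to 353), and the part of these marker differences in the results was not tested. Map4k3, Map4k5 and Dusp14 had 0 reads in all 3 KO-Saline libraries and 5, 8 and 6 reads over the 3 WT-Saline libraries, under the floor of 9 reads over a group, so no fold is given.

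Between KO-labelled and WT libraries after LPS, none of the 58 genes was called by limma or with voom weights. Of all genes limma called none (0%) and voom weights 1, with 471 at an unadjusted p under 0.05. Without KO-LPS replicate 1, limma again called no member and none of all genes. Of the members 1 (1.72%) had an unadjusted p under 0.05, beside 5.02% of all genes. This member was Dusp18, with 10, 0 and 0 reads in KO-LPS against 3, 11 and 12 in WT-LPS (limma, adjusted p = 0.949). Groups did not overlap for 6 members (10.3%), 1 higher and 5 lower, beside 9.79% of all genes, 4.32% higher and 5.47% lower. Map3k12 was 1 of the 5 lower genes, with 680, 736 and 805 reads in KO-LPS against 933, 1016 and 1137 in WT-LPS (log2 -0.27, adjusted p = 0.949). The LPS groups overlapped for each of the 8 genes called in either LPS response.

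The difference between the 2 LPS responses, KO-labelled minus WT, was called for none of the 58 genes by limma or with voom weights. Of all genes limma called none (0%) and voom weights 2, with 560 at an unadjusted p under 0.05. Without KO-LPS replicate 1, limma called no member and 3 of all genes. Of the members 3 (5.17%) had an unadjusted p under 0.05, beside 5.97% of all genes. These members were Dusp2, Dusp14 and Mapkapk2. Dusp2 was called in the KO-labelled response and not in the WT response, but the difference between the responses did not pass (log2 3.55 ± 1.30, limma, adjusted p = 0.773), and neither did it without KO-LPS replicate 1 (4.05 ± 1.39, adjusted p = 0.719). Mapkapk2 was called in the WT response and not in the KO-labelled one, and its difference was -1.45 ± 0.57 (95% interval -2.61 to -0.28, adjusted p = 0.773), or -1.35 ± 0.56 (adjusted p = 0.799) without that library. For Mapk13 the responses differed by 0.17 (95% interval -0.81 to 1.14), and by 0.45 without KO-LPS replicate 1. For Dusp16 they differed by -0.35 (-1.61 to 0.90), which turned to 0.38 without that library, and for Dusp1 by 0.57 (-0.28 to 1.41), or 0.13 without it. For Map4k4 the difference was -1.02 (-2.15 to 0.12) and -0.38 without KO-LPS replicate 1, and for Map3k5 0.71 (-0.33 to 1.74) and 0.10 without it. The intervals are wide, and a p that misses the threshold does not show that the responses were alike.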

How the data were processed

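RNA was measured in 12 blood neutrophil libraries, 3 in each of 4 groups taken from the labels. The authors deposited 1 table of log2 values for 9374 genes by NCBI Gene ID. Its genome build is mm10, per the submitters' processing notes. For the aligner, the counter, its annotation, strand setting and gene filter, the status is: not given in the sources used here. Per the labels' protocols, libraries were made with the Tecan Universal Plus Total RNA kit. From their values, the deposited log2 numbers are log2 CPM with 0.5 added to the reads, each column with its own scaled library size. Whole reads came back for 100.0% of values within 0.001 times the read number, taken as at least 1, and these are the reads printed. For the largest read numbers this tolerance is wider than any rounding error, so there the check could not fail. No gene of the table had fewer than 8 reads over all libraries or reads in fewer than 4 of them.

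The deposited log2 values were fitted as they stood with limma 3.58.1 (R 4.3.3), with a mean-variance trend, as 4 group means over all 12 libraries. Each test was two-sided, with Benjamini-Hochberg adjustment over all 9374 genes within each of 5 comparisons, and calls were made at an adjusted p under 0.05. Because 0.5 reads are part of each log2 value, a log2 fold change of a gene with few reads depends on them. It is a difference of mean log2 values, and can be smaller or larger than the change of the mean level. Irak1 in WT, with 6, 0 and 0 reads after LPS, had mean levels of 27.8 and 4.74 CPM beside a log2 fold change of -3.44. For a group with 1 to 3 reads in all, the ratio of pooled reads is given with its exact 95% interval, which covers counting error only, because without molecular identifiers several reads can come from 1 molecule. The script was tested on simulated data.

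Symbols for 9372 IDs came from RefSeq, and coordinates (1-based, mm10) and exon lengths for 9248 genes, all 58 members included, from GENCODE M21. Results of 2 of the 58 members are not reported here by name. Promoter windows are the 250 bases before each RefSeq start. The 58 members, their roles and the gene and marker lists were chosen with earlier results of these data known. Named were members called in any comparison, a set of central members, the 10 most abundant, those with 0 reads in a group and up to 4 called genes of each pathway list. Other members named for a small count, for groups that did not overlap or as relatives of a named gene were chosen after their values were seen. Of the other marker lists, 4 of 10 monocyte, 3 of 10 T and NK cell, 1 of 7 erythroid and 1 of 6 eosinophil and basophil markers were in the table. Alternatives were no trend, voom weights on the recovered reads, a fit of the compared groups only, a minimum mean of 10 reads, 2 reads added in place of 0.5, quantile normalization, a replicate block and leaving out each library.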

Additional observations from a re-analysis of the deposited data

How the results depend on the processing

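Depth was low: 25 of the 58 genes had a mean under 10 reads per library. In WT, leaving out 1 library gave 4 to 8 called members, the 4 without WT-Saline replicate 1. In KO-labelled libraries it gave 0 to 10: 10 without KO-LPS replicate 1, and 0 without KO-Saline replicate 2 or either of the other KO-LPS libraries. With no mean-variance trend, 0 members were called in WT (363 genes in all) and 0 in KO-labelled libraries (16 genes). Fitting only the 2 groups compared gave 0 in KO-labelled libraries (82 genes). The cause was not tested. The 7 WT calls held with voom weights, only the 2 groups, a minimum of 10 reads, 2 reads added and quantile normalization, and no called gene changed sign. The 3 comparisons of genotype gave 0 called members under all alternatives. No pairing of the libraries by replicate number was seen: correlations of same-numbered deviations were 0.04, 0.018 and 0.004 in WT and -0.066, -0.024 and -0.022 in KO-labelled libraries. They were taken over all genes, at a median of 11.33 reads per gene and library. Counting error at that depth could hide a pairing, so they cannot exclude one. With a replicate block, 7 members were called in WT and 3 in KO-labelled libraries, as without it. Quantile normalization shifted the median of a library by up to 0.113 log2 units, the largest shift being that of KO-Saline replicate 3.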
